A study of Rattus norvegicus with 15 samples.

Results

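The constitutive proteasome genes were taken as the protein-coding genes of the deposited table whose symbols begin with Psma, Psmb, Psmc or Psmd and a digit, leaving out the immunoproteasome subunits Psmb8, Psmb9 and Psmb10. This rule found 37 of 22436 genes, of which 18127 are protein coding. The core of the particle was represented by 16 genes, 8 of them Psma and 8 Psmb, and the regulatory cap by 21 genes, 7 of them Psmc and 14 Psmd. By their known roles, 31 of the 37 encode subunits of the constitutive particle, 14 in the core and 17 in the cap. The other 6 carry a matching symbol only: Psma8 is the testis form of an alpha subunit, Psmb11 the thymus form of a catalytic beta subunit, Psmc3ip a cofactor of meiotic recombination, and Psmd5, Psmd9 and Psmd10 are chaperones that help to assemble the cap. RNA-seq was done on prostate tissue of SD rats, 15 libraries in all. The Control group comprised 5 libraries from rats that received no treatment. The Model group comprised 5 libraries from a rat model of prostatitis (CP/CPPS in the labels), with no ultrasound given. The LIPUS group comprised 5 libraries from rats of that model given low-intensity pulsed ultrasound, short bursts of sound waves, for 4 weeks. The intensity is 1 W/cm2 in the sample titles and 1.5 W/cm2 in the treatment field. How prostatitis was induced, the age of the rats, the lobe of the prostate taken and whether libraries came from separate animals are not given in the sources used here, so p-values measure the spread between libraries, which may be technical.

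The proteasome is the main machine that breaks down proteins marked with ubiquitin in the cytosol and nucleus. Its barrel-shaped core is built of outer rings of alpha subunits, which gate the entrance, and inner rings of beta subunits, of which Psmb5, Psmb6 and Psmb7 carry the protein-cutting sites. The cap sits on the end of the barrel: a ring of Psmc ATPases unfolds the substrate, and Psmd subunits hold the ubiquitin receptors, the scaffold and the deubiquitinase Psmd14. Transcription of the subunit genes is known to be coordinated by Nfe2l1, a factor that binds antioxidant response elements, and secretory epithelia such as that of the prostate carry a heavy load of newly made protein.

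The promoters of the members were searched for the core of that element, TGACNNNGC, since the members are known for moving together through it. RefSeq promoter sequences (build GRCr8, 250 bases before to 50 after the annotated start) were matched by gene number for 32 of the 37 members; Psma7, Psmb11, Psmd6, Psmd12 and Psmd14 had no entry. On either strand, 7 of 32 promoters (21.9%) held the motif, against 14.8% of the 10701 promoters of tested genes and 12.1% of all 33469 promoters. Among core subunits it was found in 4 of 13 and among cap subunits in 2 of 14. The core genes were Psma3, Psmb2, Psmb5 and Psmb6, and the cap subunit genes were Psmd1 and Psmd3, and the seventh promoter was that of the chaperone Psmd9. The windows around it are shown for 5 subunits, since 2 of them make cutting sites and all 5 have their values described later; capitals mark the motif, or its reverse complement in Psma3, and position -1 is the base before the annotated start.
Psmb5, chr15:32047405-32047464, minus strand, motif from position -60: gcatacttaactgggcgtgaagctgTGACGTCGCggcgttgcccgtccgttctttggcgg
Psmb6, chr10:55737839-55737887, plus strand, motif from position -24: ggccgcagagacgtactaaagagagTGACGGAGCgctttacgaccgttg
Psmb2, chr5:144254965-144255024, plus strand, motif from position -68: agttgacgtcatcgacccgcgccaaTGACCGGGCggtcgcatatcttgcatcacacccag
Psma3, chr6:95219712-95219748, plus strand, motif from position -12: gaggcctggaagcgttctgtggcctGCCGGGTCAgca
Psmd1, chr9:94157781-94157840, plus strand, motif from position -165: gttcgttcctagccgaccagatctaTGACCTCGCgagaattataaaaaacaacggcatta

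In the Psmb2 window the first base of the motif is the last base of a CCAAT box. CCAAT itself, the letters bound by the factor NF-Y, was present in 53.1% of the member promoters and 37.7% of the promoters of tested genes. GGGCGG, a letter string of GC boxes, was present in 71.9% against 61.2%, and TATAAA in 12.5% against 7.25%. All 4 motifs were searched on both strands and can overlap. These matches describe letters in a window and say nothing of a factor's binding.

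Libraries held 29675962 to 36402094 reads, recovered from FPKM (fragments counted per gene, divided by gene length and library size). The 13 mitochondrially encoded genes took 4.23 ± 0.406% of reads in Control, 34.9 ± 9.18% in Model and 59.6 ± 15.7% in the LIPUS libraries (SD, n = 5 each), and the 3 group differences had adjusted p of 0.0119, 0.0238 (LIPUS against Model) and 0.0119 (two-sided exact permutation tests over 252 splits, adjusted over 3). FPKM of nuclear genes fall as that share grows. The median of the 12490 tested genes changed by -0.90 on the log2 scale in Model against Control, -0.60 in LIPUS against Model and -1.48 in LIPUS against Control. Each comparison of the members is therefore given on 2 scales: as deposited, and after division by a median-of-ratios factor per library (scaled values), on which the median gene changed by -0.15, -0.02 and -0.16. Among listed cell type markers, the summed FPKM of fibroblast genes was 692 to 1296 in Control, 59.8 to 160.2 in Model and 78.2 to 208.5 in the LIPUS group, and all 6 were lower in Model than in Control. All 5 genes of dividing cells were lower in Model too, from a sum of 31.9 to 61.2 FPKM to 0.141 to 0.348, and stood at 0.792 to 2.21 in LIPUS. These and the next counts are as deposited, where 43.1% of all tested genes were lower and 2.95% higher in Model. Of 5 smooth muscle genes 3 were lower in Model, of 4 basal epithelial genes 4, of 3 skeletal muscle genes 1 and of 8 macrophage genes 3, while 1 T cell gene was higher and 1 lower of 3, and no gene was called among 6 of the seminal vesicle, 5 of erythrocytes and 1 of neutrophils. After scaling 4 fibroblast, 5 dividing cell, 2 smooth muscle and 2 basal genes were lower. On this scale 1 macrophage gene was higher and 1 lower, 1 T cell gene was higher and no skeletal muscle gene was called. The scaled shares of all tested genes were 15.3% higher and 20.2% lower in Model. The summed luminal epithelial genes ran from 4295 to 60793 FPKM in Control, 788 to 178414 in Model and 3185 to 43333 in the LIPUS group. Of the luminal genes, Krt18, Krt8 and Hoxb13 were higher in Model after scaling, by 1.26, 0.85 and 0.77 on the log2 scale, and not as deposited (0.48, 0.07 and -0.01), and Tmprss2 was lower on both scales (-1.79 and -1.02). In LIPUS against Model 5 of 8 macrophage genes were higher (6 after scaling), where 1.31% of all tested genes were (2.72% after scaling). Also higher there were 3 of 5 dividing cell genes (3 after scaling), 1 of 4 basal genes (2) and 1 of 3 T cell genes (1). In these 4 lists 0 genes were lower. No luminal marker was at 0 in all libraries, and the part of these cell markers in the results on proteasome genes was not tested. In whole tissue, fewer cells of a type and less RNA per cell cannot be told apart. Model replicate 7 stood apart before any comparison: the members took 0.927% of its nuclear reads against 0.266 to 0.375% in the other Model libraries and 0.325 to 0.411% in Control, and its marker sums were the lowest of its group in all lists but neutrophil. The log2 ratio of the reads of Scgb1d2, Scgb1d4 and Scgb2a1, known from the ventral lobe, to those of Pbsn and Msmb, known from the dorsolateral lobe, was 7.76 in this library and -9.25 to -2.77 in the other Model libraries, 1.22 to 5.88 in Control and -0.71 to 4.46 in the LIPUS group; these genes were chosen after their values were seen. The other Model libraries thus lay below all Control and LIPUS libraries in this ratio, and replicate 7 above them. The labels name no lobe, so this ratio goes against none of them, but whether replicate 7 holds the same part of the prostate as its group is in doubt, and the part of the lobe in the results was not tested. Counts that rest on it are given with and without it.

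In Control prostate every subunit was well expressed, and the median core subunit was more abundant than the median cap subunit in all 5 libraries. Mean Control FPKM of the 14 core subunits ran from 58.1 ± 6.60 (SD, n = 5) for Psmb5, the chymotrypsin-like cutting subunit, to 212 ± 15.7 for the alpha subunit Psma2. The 17 cap subunits ran from 28.3 ± 2.39 for the lid subunit Psmd11 to 98.96 ± 8.85 for the ATPase Psmc1. Since FPKM is per length, these levels can be set side by side. The cutting subunits were at 58.1 ± 6.60 (Psmb5), 76.7 ± 4.51 (Psmb6, caspase-like) and 118 ± 9.77 FPKM (Psmb7, trypsin-like), and the 3 ranges did not overlap. The median over the core subunits was 83.6, 96.3, 99.8, 109 and 111.5 FPKM in the Control libraries from lowest to highest, and that over the cap subunits was 45.7, 58.2, 58.6, 64.0 and 66.1 FPKM. In Model the core median was 91.3 ± 45.0 FPKM and the cap median 39.3 ± 24.1 FPKM, and in LIPUS they were 59.1 ± 30.8 and 28.1 ± 18.2 FPKM. After scaling, the core median was 59.9 ± 6.52 in Control, 91.2 ± 34.5 in Model and 85.9 ± 12.9 in the LIPUS group. The spread in Model came with replicate 7, whose core median was 168 FPKM; without it the core median was 72.1 ± 15.8 FPKM (n = 4). On the deposited scale the Model and Control ranges of the core overlapped, whereas after scaling every LIPUS library was above every Control library for the core and not for the cap.

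**Figure D1:**
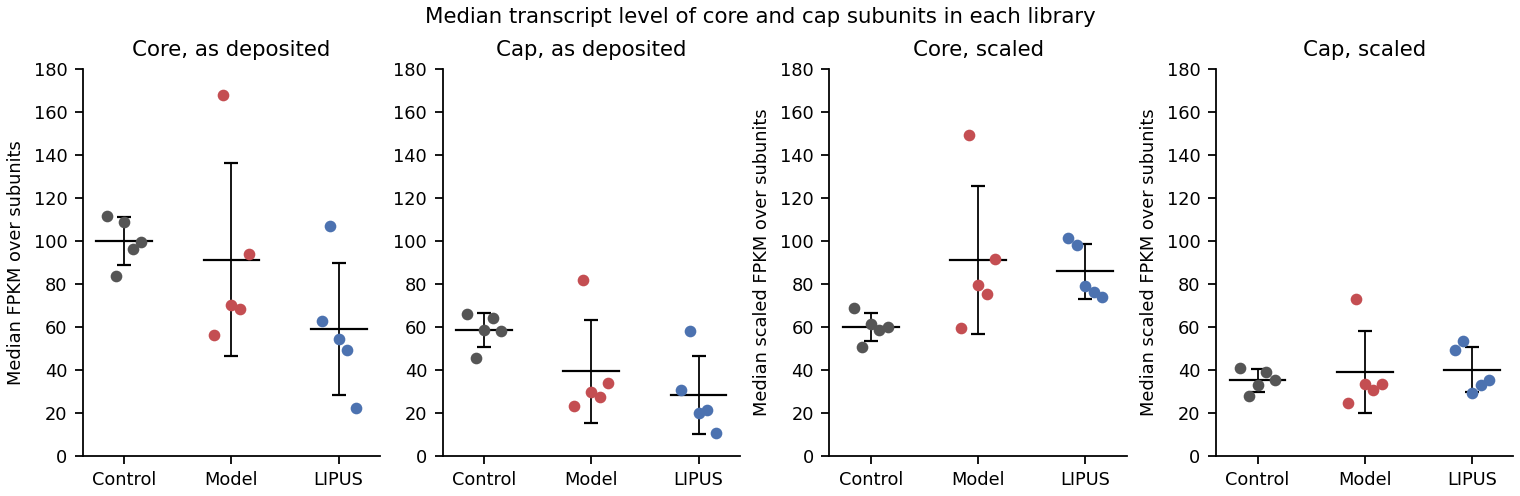
Median FPKM over the 14 core subunits and the 17 cap subunits in each library (points), as deposited and after median-of-ratios scaling, with the mean and SD of each group (bars, n = 5). Model replicate 7 is the highest point of its group in all 4 panels, and scaled core medians of LIPUS, 74.1 to 101.3, lie above those of Control, 50.6 to 68.8.

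The comparison of Model with Control asked how the prostatitis model differed from untreated prostate. Of the 35 tested members, 10 were higher and 1 was lower in Model after scaling, whereas as deposited none was higher and 6 were lower, and under quantile normalization 1 was higher and 4 were lower. The members higher after scaling were the alpha subunits Psma4, Psma6 and Psma7, the beta subunits Psmb1, Psmb4 and Psmb6, the ATPase Psmc5, and Psmd4, Psmd7 and Psmd8 of the cap. Psmd11, a scaffold subunit of the lid, was the member lower on both scales. The 6 lower as deposited were Psma5, Psmd1, Psmd2, Psmd3, Psmd11 and Psmd14. The background on the scaled values was 15.3% of tested genes higher and 20.2% lower, and as deposited 2.95% higher and 43.1% lower. With all libraries kept, 6 of 35 members lower is a smaller share than that of all tested genes. Without Model replicate 7 the share of members was no longer the smaller, by the counts given below. Beside the count of 0 higher as deposited, limma gave 0 higher and 11 lower at an unadjusted p under 0.05, and limma-voom on the recovered reads gave 0 higher and 6 lower. Psma8 and Psmb11 did not pass the filter on low values. As deposited, the median log2 change was -0.29 over the 14 core genes and -0.71 over the 21 cap genes, beside -0.90 over all tested genes. The place of the members against the median tested gene turned with the setting: 28 of 35 were above it as deposited, 14 with quantile normalization or no filter on low values, and 18 with a pseudocount of 1. The core and cap medians relative to that gene were 0.61 and 0.18 as deposited, -0.05 and -0.27 with quantile normalization, 0.18 and -0.25 with no filter, and 0.34 and -0.05 with a pseudocount of 1. Groups that did not overlap were found for 0 members above and 3 below Control as deposited (background 3.16% and 41.4%), and for 8 above and 0 below after scaling (background 14.1% and 18.3%). Without Model replicate 7 the counts were 0 higher and 17 lower as deposited (background 5.03% and 47.3%) and 8 higher and 6 lower after scaling (background 21.3% and 26%). Leaving out LIPUS replicate 10 as well gave 0 higher and 23 lower as deposited (background 7.2% and 56%) and 10 higher and 7 lower after scaling (background 24.2% and 29.3%). Without LIPUS replicate 10 alone, which enters through the shared spread, 12 were lower as deposited. Without Model replicate 6, 8, 9 or 10, or Control replicate 6, 8, 9 or 10, 2 or 3 were lower.

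**Figure D2:**
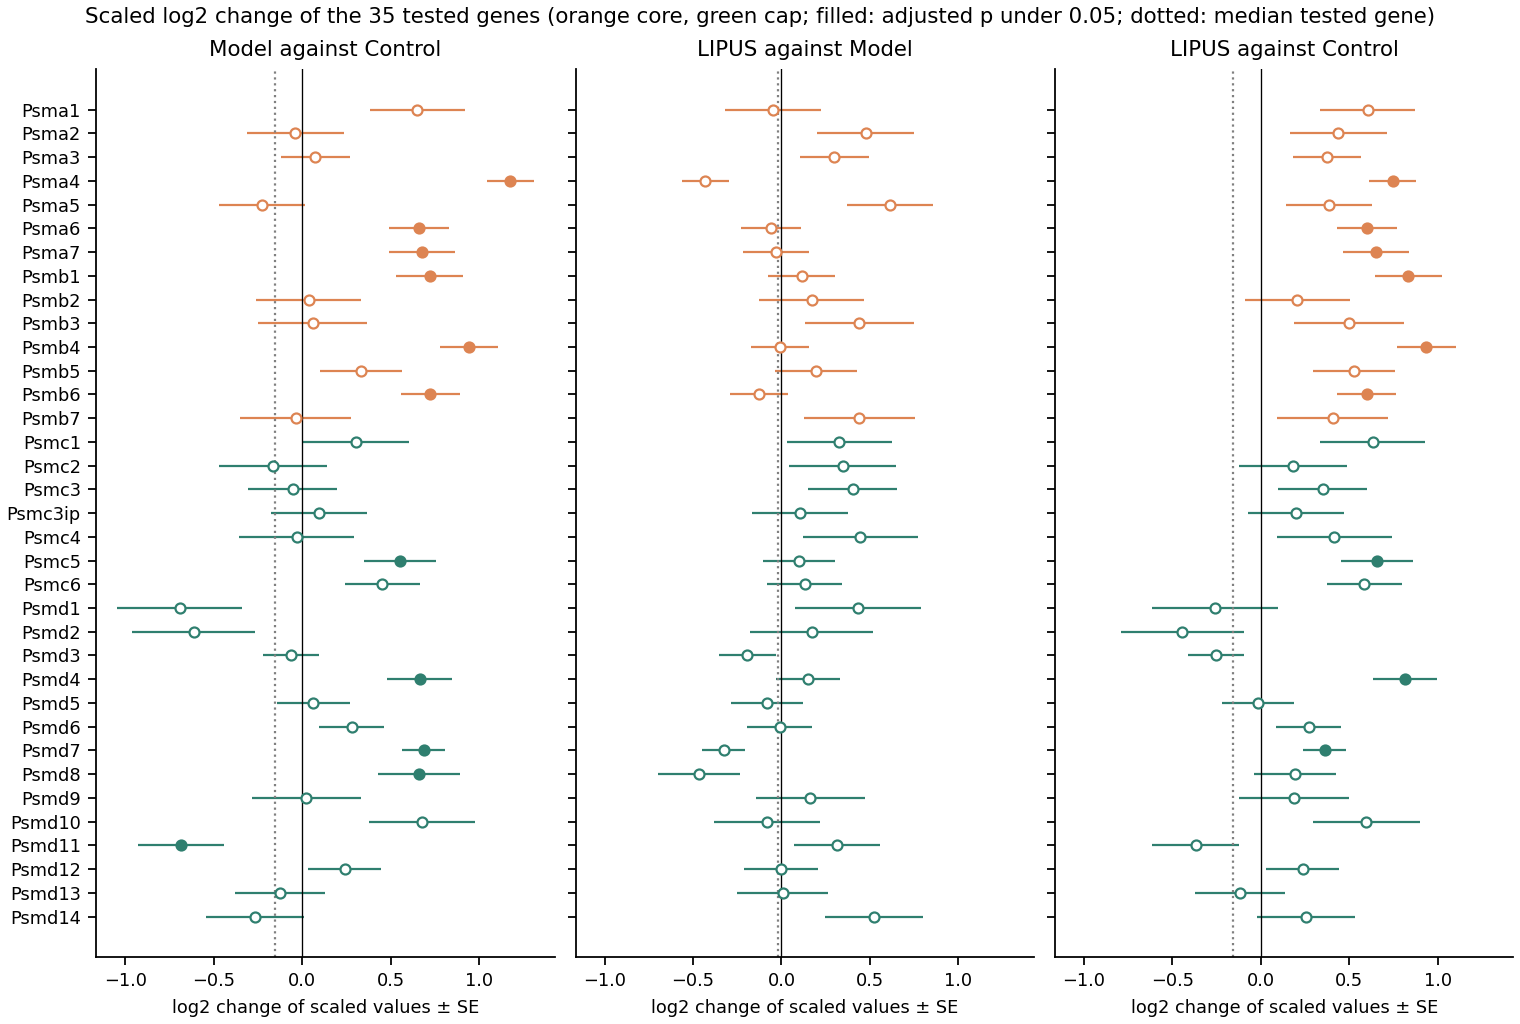
Log2 change of scaled values with its SE for the 35 tested members in each comparison, core genes in orange and cap genes in green; filled points have a limma adjusted p under 0.05, and the dotted line is the median tested gene. In Model against Control 10 members are filled to the right of 0 and Psmd11 to the left, and none is filled in LIPUS against Model.

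Of the 7 alpha subunits, 3 were higher in Model after scaling and 1 was lower as deposited. Over all tested genes these shares were 15.3% and 43.1%. Psma4 had the highest change of all members. Its FPKM in replicates 6 to 10 was 77.1, 62.9, 75.9, 67.1 and 74.2 in Control, 90.6, 104, 68.96, 97.2 and 115 in Model, and 42.3, 93.2, 51.1, 42.5 and 19.7 in the LIPUS libraries. After scaling, the Model libraries were at 78.2 to 113 and the LIPUS libraries at 65.7 to 85.6, both above all Control libraries at 38.1 to 47.6. The log2 change in Model against Control was 0.40 ± 0.32 (SE, limma adjusted p = 0.318) as deposited and 1.18 ± 0.13 (SE, limma adjusted p = 1.82e-05) after scaling. It was also higher under quantile normalization, by 0.67 (adjusted p = 0.00136), and relative to nuclear reads, by 0.97 (adjusted p = 0.00147), and without Model replicate 7 the scaled change was 1.19 ± 0.14 (SE, limma adjusted p = 1.01e-05). Psma4 was the member furthest above genes of its own length, by 0.91 on the log2 scale. Psma5, another alpha subunit, had the lowest change of its ring, and its FPKM was 74.1, 62.4, 75.2, 67.1 and 75.1 in Control, 26.8, 88.3, 31.6, 22.2 and 31.9 in Model, and 31.9, 69.9, 42.8, 33.9 and 14.3 in the LIPUS libraries. Psma5 was below all Control libraries in 4 of the 5 Model libraries, and replicate 7 was above them. Its log2 change was -1.01 ± 0.39 (SE, limma adjusted p = 0.0447) as deposited and -0.23 ± 0.24 (SE, limma adjusted p = 0.495) after scaling, and the scaled change without replicate 7 was -0.51 ± 0.14 (SE, limma adjusted p = 0.00716). Psma3, a gene with the motif, was at 75.7 ± 8.59 FPKM in Control and 49.8 ± 24.2 in Model, a scaled change of 0.08 ± 0.19 (SE, limma adjusted p = 0.794). As deposited it changed by -0.70 ± 0.34 (SE, limma adjusted p = 0.0963), and by -0.95 ± 0.31 (SE, limma adjusted p = 0.0159) without replicate 7.

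Of the 7 beta subunits, 3 were higher in Model after scaling and none was called as deposited. Over all tested genes 15.3% were higher after scaling, and 2.95% were higher and 43.1% lower as deposited. Of the cutting subunits only Psmb6 was among the 3. Psmb6 had FPKM of 80.6, 71.5, 80.5, 72.2 and 78.9 in Control, 51.97, 97.8, 71.7, 60.2 and 99.5 in Model, and 52.6, 79.6, 51.1, 42.8 and 15.9 in the LIPUS libraries. As deposited its Model and Control ranges overlapped, with a log2 change of -0.05 ± 0.35 (SE, limma adjusted p = 0.906). After scaling all Model libraries (55.1 to 97.2) were above all Control libraries (43.2 to 49.7), a change of 0.72 ± 0.17 (SE, limma adjusted p = 0.00347). Tested genes of like length had a median scaled change of 0.65. Relative to genes of like length, the log2 change of Psmb6 as deposited was 0.06. That of Psmb1 was 0.58 and that of Psmb4 was 0.41. For Psmb2, Psmb3, Psmb5 and Psmb7 it was -0.63, -0.60, -0.26 and -0.56. Psmb5, with FPKM of 64.8, 52.98, 65.1, 56.8 and 50.8 in Control, 27.3, 84.6, 42.9, 29.97 and 45.9 in Model, and 38.2, 56.6, 41.4, 22.4 and 13.8 in the LIPUS libraries, changed by 0.33 ± 0.23 (SE, limma adjusted p = 0.291) after scaling, and its groups overlapped. Psmb7 had FPKM of 126, 102, 125, 121 and 115 in Control, 44.5, 217, 61.1, 44.2 and 50.9 in Model, and 73.1, 126, 54.7, 54.1 and 23.04 in the LIPUS libraries. Here replicate 7 of Model was the highest library of all and the other 4 Model libraries were below every Control library. The scaled log2 change of Psmb7 was -0.04 ± 0.31 (SE, limma adjusted p = 0.944) with replicate 7 and -0.41 ± 0.16 (SE, limma adjusted p = 0.0556) without it, and the change as deposited was -0.81 ± 0.44 (SE, limma adjusted p = 0.139) and -1.24 ± 0.35 (SE, limma adjusted p = 0.00754). Whether these 3 genes differed from each other in their change was not tested. Psmb4, a structural beta subunit, had the highest change of the beta ring. Its FPKM was 119, 113, 140.3, 114 and 112 in Control, 86.5, 206, 139, 114 and 151 in Model, and 84.7, 137, 103, 79.3 and 44.9 in the LIPUS libraries, and the scaled change was 0.94 ± 0.17 (SE, limma adjusted p = 0.000515), with no overlap of the scaled Model and Control libraries. Relative to nuclear reads its change was 0.73 (adjusted p = 0.0244), and under quantile normalization 0.38 (adjusted p = 0.0525). Psmb2 was at 67.7 ± 5.92 FPKM in Control and 47.03 ± 31.004 in Model, with a scaled change of 0.04 ± 0.30 (SE, limma adjusted p = 0.937); as deposited it changed by -0.74 ± 0.42 (SE, limma adjusted p = 0.154), and by -1.06 ± 0.38 (SE, limma adjusted p = 0.0251) without replicate 7.

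In Model, 15.3% of all tested genes were higher after scaling, and 2.95% were higher and 43.1% lower as deposited. Of the 6 ATPase subunits of the cap, 1 was higher in Model after scaling and none was called as deposited. This was Psmc5, at 57.3 ± 7.67 FPKM in Control and 52.6 ± 26.7 in Model, with a scaled log2 change of 0.55 ± 0.20 (SE, limma adjusted p = 0.0444) that became 0.35 ± 0.14 (SE, limma adjusted p = 0.0510) without Model replicate 7. Psmc2 had the lowest change of the ATPases, -0.94 ± 0.44 (SE, limma adjusted p = 0.0854) as deposited and -0.16 ± 0.30 (SE, limma adjusted p = 0.708) after scaling. Without Model replicate 7 it was lower on both scales, by -1.34 ± 0.36 (SE, limma adjusted p = 0.00510) and -0.51 ± 0.18 (SE, limma adjusted p = 0.0269). Its Control libraries were at 79.7 to 105 FPKM and its Model libraries at 30.9 to 150.4 FPKM, replicate 7 being the highest. Psmc4 likewise ran from 11.99 to 74.2 FPKM in Model, around 40.9 to 47.5 FPKM in Control, and as deposited it changed by -0.81 ± 0.45 (SE, limma adjusted p = 0.148) with replicate 7 and -1.20 ± 0.38 (SE, limma adjusted p = 0.0145) without it.

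Of the 11 non-ATPase subunits of the cap, 3 were higher and 1 lower after scaling, and 5 were lower as deposited. Over all tested genes 15.3% were higher and 20.2% lower after scaling, and 43.1% were lower as deposited. Psmd7, a lid subunit that pairs with the deubiquitinase, had FPKM of 90.3, 80.8, 88.8, 91.9 and 82.03 in Control, 68.4, 90.1, 75.3, 73.99 and 103 in Model, and 46.3, 68.97, 47.9, 43.5 and 17.7 in the LIPUS libraries. After scaling all its Model libraries (72.5 to 101) and LIPUS libraries (59.2 to 74.7) were above Control (48.9 to 56.04), and the change in Model was 0.69 ± 0.12 (SE, limma adjusted p = 0.000566). Psmd4, a ubiquitin receptor, changed by 0.66 ± 0.18 (SE, limma adjusted p = 0.0104) after scaling and was at 50.6 ± 4.38 FPKM in Control and 48.4 ± 16.3 in Model. Psmd8, a lid subunit, changed by 0.66 ± 0.23 (SE, limma adjusted p = 0.0371), and by 0.52 ± 0.22 (SE, limma adjusted p = 0.0640) without Model replicate 7. The large scaffold subunits lay at the other end. Psmd1 had FPKM of 66.1, 45.7, 57.8, 64.02 and 56.1 in Control, 15.8, 74.5, 16.7, 12.3 and 15.7 in Model, and 25.7, 41.4, 16.8, 15.01 and 6.56 in the LIPUS libraries. Psmd2 had FPKM of 81.4, 62.9, 81.9, 87.3 and 79.004 in Control, 22.4, 91.7, 25.7, 15.3 and 28.3 in Model, and 30.5, 58.1, 18.5, 20.5 and 6.35 in the LIPUS libraries. In both, 4 of the 5 Model libraries were below all Control libraries and replicate 7 was above them. The log2 change of Psmd1 was -1.47 ± 0.48 (SE, limma adjusted p = 0.0193) as deposited and -0.69 ± 0.35 (SE, limma adjusted p = 0.142) after scaling, and without replicate 7 the scaled change was -1.10 ± 0.20 (SE, limma adjusted p = 0.000517). For Psmd2 these were -1.39 ± 0.50 (SE, limma adjusted p = 0.0308), -0.61 ± 0.35 (SE, limma adjusted p = 0.189) and -0.97 ± 0.25 (SE, limma adjusted p = 0.00582). Psmd11, singled out after its values were seen, had FPKM of 30.8, 24.6, 27.8, 30.01 and 28.2 in Control, 7.48, 24.2, 9.41, 7.61 and 8.34 in Model, and 9.47, 17.5, 7.99, 8.55 and 2.99 in the LIPUS libraries. All its Model libraries were below all Control libraries as deposited, and after scaling replicate 7 was above them. Its log2 change was -1.46 ± 0.40 (SE, limma adjusted p = 0.00738) as deposited, -0.69 ± 0.24 (SE, limma adjusted p = 0.0393) after scaling, -0.88 (adjusted p = 0.00964) under quantile normalization and -0.90 (adjusted p = 0.0424) relative to nuclear reads. Psmd14, which removes ubiquitin chains, was at 45.6 ± 3.64 FPKM in Control and 25.6 ± 18.2 in Model, -1.05 ± 0.38 (SE, limma adjusted p = 0.0343) as deposited and -0.27 ± 0.28 (SE, limma adjusted p = 0.482) after scaling, and -0.56 ± 0.18 (SE, limma adjusted p = 0.0205) after scaling without replicate 7.

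**Figure D3:**
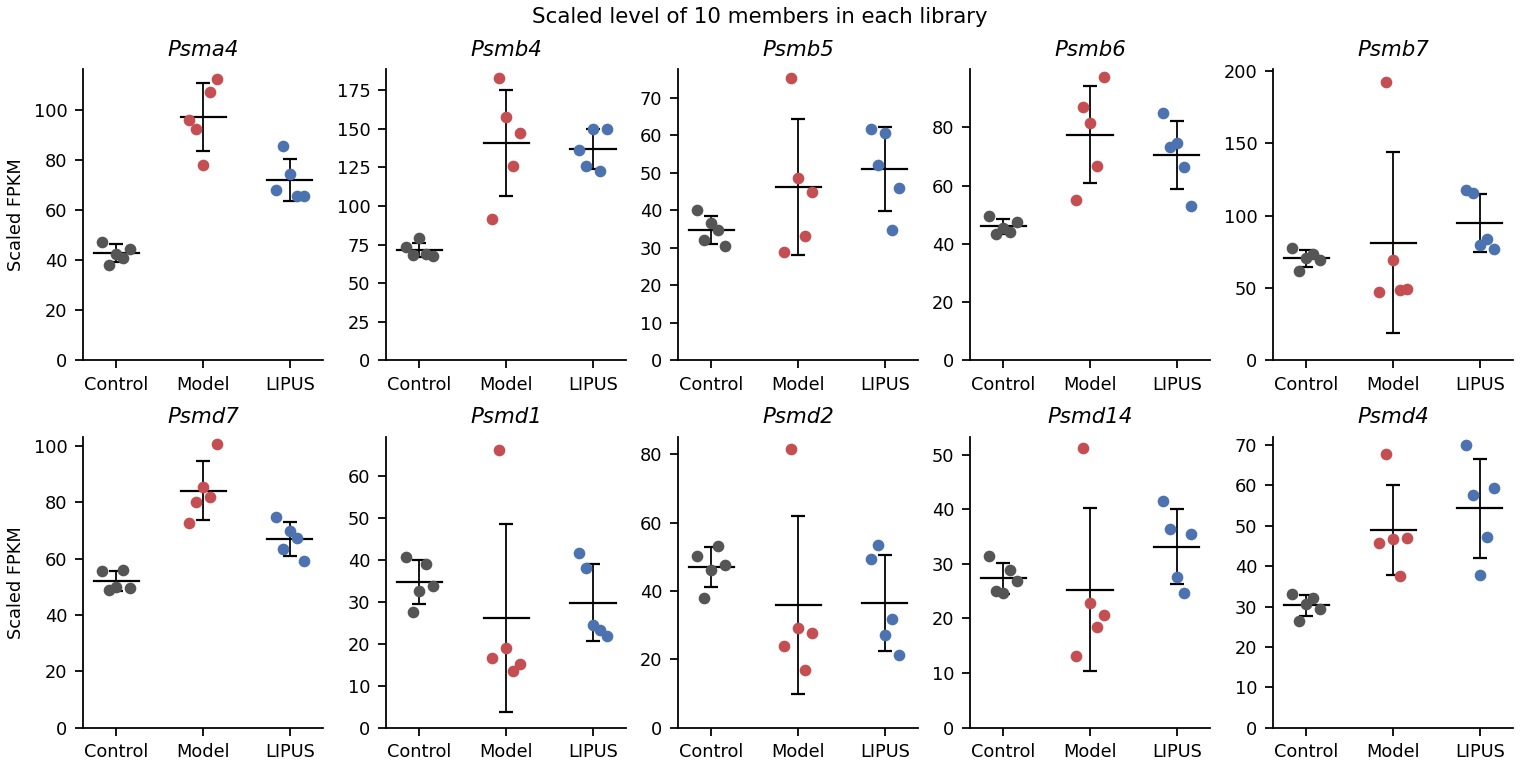
Scaled FPKM of 10 members in each library, with group mean and SD (n = 5). Psma4, Psmb4, Psmb6, Psmd7 and Psmd4 have every Model library above every Control library, whereas in Psmb7, Psmd1, Psmd2 and Psmd14 Model replicate 7 lies above Control and the other Model libraries lie below the Control mean.

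Core and cap transcripts were next compared within each library, as the mean log2(FPKM + 0.1) of the core subunits minus that of the cap subunits, a value in which a factor per library cancels but for the small pseudocount. In Control the difference was 0.72, 0.76, 0.80, 0.63 and 0.75 in replicates 6 to 10. In Model it was 0.97, 0.95, 1.16, 1.15 and 1.14, and in LIPUS 0.95, 0.98, 1.33, 1.02 and 1.13. All 5 Model and all 5 LIPUS libraries were above all 5 Control libraries, while Model and LIPUS overlapped. The group means were 0.73 ± 0.07 in Control, 1.07 ± 0.11 in Model and 1.08 ± 0.16 in the LIPUS group (SD, n = 5 each). The core to cap ratio was thus 1.27-fold higher in Model than in Control, and LIPUS differed from Model by 0.0061 on the log2 scale. Over all 37 members, which include the silent Psma8 and Psmb11, the difference was -0.09 ± 0.04 in Control, 0.28 ± 0.14 in Model and 0.35 ± 0.17 in the LIPUS group. Leaving out Model replicate 7 and LIPUS replicate 10 gave 0.38 for Model against Control over the subunits. No p-value is given, because the members were chosen with results known.

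**Figure D4:**
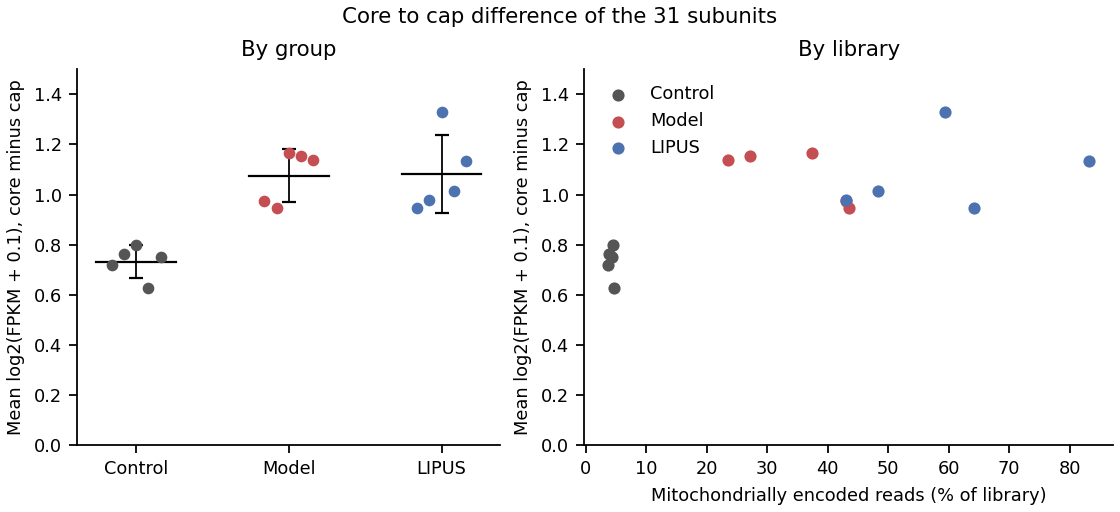
Core minus cap difference of mean log2(FPKM + 0.1) over the 31 subunits, by group with mean and SD (left, n = 5) and against the mitochondrially encoded share of reads in each library (right). Control libraries lie between 0.63 and 0.80 and below all others, while libraries of Model and LIPUS overlap in this difference. The part of the mitochondrial share in it was not tested.

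Core and cap subunits also differ in gene length, and so did the change of all genes. The length behind FPKM was 773 to 2003 bases in the core subunits (median 947.5) and 1288 to 3787 in the cap subunits (median 1593), beside a median of 3004 over all tested genes. Across the 12490 tested genes, the log2 change in Model against Control had a Spearman correlation with length of -0.319, and across the 31 subunits of -0.336. For LIPUS against Control these were -0.397 and -0.466, and for LIPUS against Model -0.0151 and -0.0415. Genes are not independent replicates and share their libraries, so these are descriptions. When each subunit was set against the median of the 500 tested genes nearest to it in length, an alternative chosen after seeing the data, the mean difference of core and cap subunits in Model against Control went from 0.34 to -0.0084. In LIPUS against Control it went from 0.35 to -0.016. Against genes of like length, 7 of 14 core and 8 of 17 cap subunits were above the median in Model against Control. Within the core subunits the change had a Spearman correlation with length of 0.198, and within the cap subunits of -0.461. What lies behind the relation with length was not tested.

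**Figure D5:**
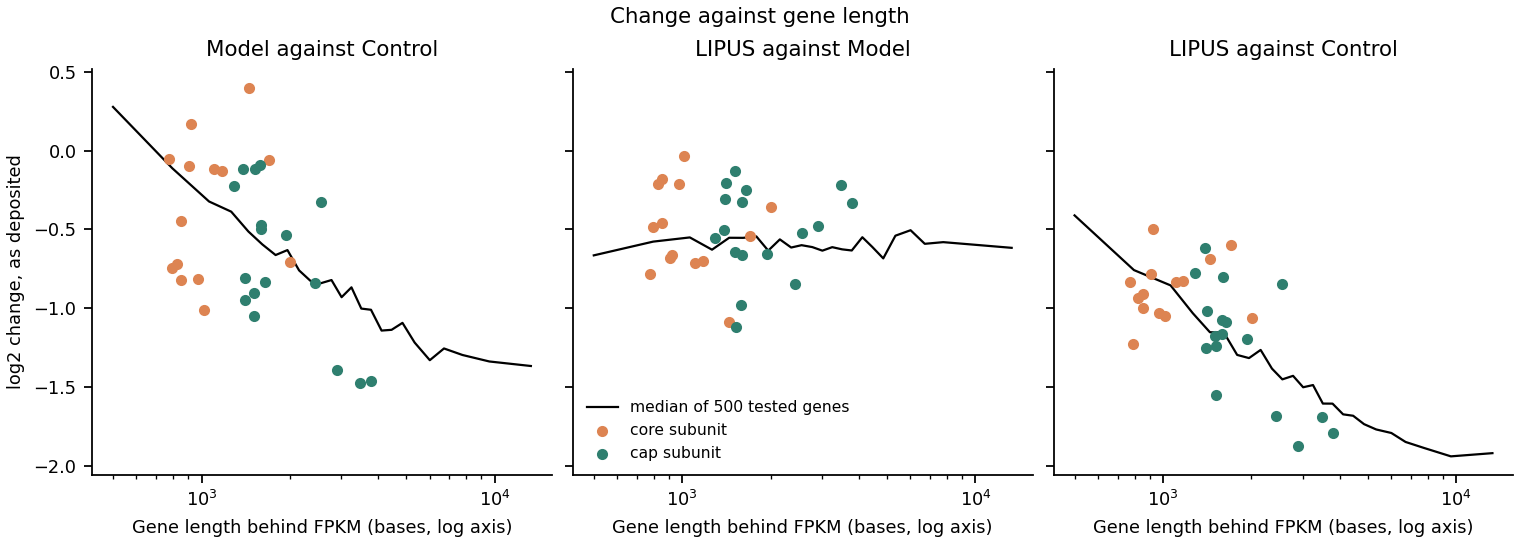
Log2 change as deposited against the gene length behind FPKM (log axis) for core subunits (orange) and cap subunits (green), with the median of successive bins of 500 tested genes (line; the last bin holds 490). In both comparisons with Control the line falls with length and the subunits scatter around it, while in LIPUS against Model it is nearly flat.

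The comparison of LIPUS with Model asked what ultrasound treatment changed in the prostatitis model. No member was called after scaling, and as deposited 2 were lower and none higher, the alpha subunit Psma4 and the lid subunit Psmd7. The background was 1.31% of tested genes higher and 13.3% lower as deposited, and 2.72% and 1.49% after scaling. At an unadjusted p under 0.05, limma gave 1 higher and 2 lower after scaling and 0 higher and 7 lower as deposited, and limma-voom called 0 higher and 3 lower. Psma4 changed by -1.08 ± 0.32 (SE, limma adjusted p = 0.0369) as deposited and -0.43 ± 0.13 (SE, limma adjusted p = 0.0713) after scaling. Psmd7 changed by -0.98 ± 0.30 (SE, limma adjusted p = 0.0400) and -0.33 ± 0.12 (SE, limma adjusted p = 0.116). The LIPUS and Model libraries overlapped in both genes on both scales. The median log2 change as deposited was -0.51 over the core and -0.51 over the cap, beside -0.60 over all tested genes. No member had LIPUS and Model libraries that did not overlap, against 0.536% of tested genes above and 4.22% below as deposited and 1.63% and 1.29% after scaling. These counts rest on single libraries. Without LIPUS replicate 7, 13 members were lower as deposited. Without any 1 Control library, Model replicate 6, 8, 9 or 10, or LIPUS replicate 6 or 9, none was called as deposited. Without LIPUS replicate 8, 1 was.

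Without Model replicate 7, 12 members were higher and 2 lower in LIPUS than in Model after scaling, at a background of 15% higher and 17.1% lower, and 0 were higher and 2 lower as deposited (background 4.36% and 28.1%). The 12 higher were Psma2, Psma3, Psma5, Psmb3, Psmb7, the ATPases Psmc1, Psmc2, Psmc3 and Psmc4, and Psmd1, Psmd11 and Psmd14. The 2 lower were again Psma4 and Psmd7. In this set Psma5 changed by 0.89 ± 0.14 (SE, limma adjusted p = 0.000629), Psmb7 by 0.81 ± 0.16 (SE, limma adjusted p = 0.00283), Psmd1 by 0.84 ± 0.20 (SE, limma adjusted p = 0.00718) and Psmd14 by 0.81 ± 0.18 (SE, limma adjusted p = 0.00476). With replicate 7 kept, the same 4 genes changed by 0.62 ± 0.24 (SE, limma adjusted p = 0.132), 0.44 ± 0.31 (SE, limma adjusted p = 0.384), 0.43 ± 0.35 (SE, limma adjusted p = 0.451) and 0.52 ± 0.28 (SE, limma adjusted p = 0.247). Leaving out LIPUS replicate 10 as well gave 13 higher and 1 lower after scaling (background 16.6% and 18.7%), and 0 higher and 2 lower as deposited (background 7.62% and 26.5%).

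LIPUS against Control shares its Control libraries with the first comparison and is given beside it, not as a repeat of it. As deposited 25 of 35 members were lower and none higher (background 74.4% lower and 0.953% higher), and after scaling 9 were higher and none lower (background 11.6% and 14.3%), while quantile normalization gave 1 higher and 1 lower. Beside the counts of 0, at an unadjusted p under 0.05 limma gave 0 higher and 29 lower as deposited and 12 higher and 0 lower after scaling, and limma-voom called 0 higher and 26 lower. The 9 higher were Psma4, Psma6, Psma7, Psmb1, Psmb4, Psmb6, Psmc5, Psmd4 and Psmd7. Psmb4 had the highest scaled change, 0.94 ± 0.17 (SE, limma adjusted p = 0.000879), with LIPUS libraries at 123 to 150.2 and Control libraries at 67.5 to 79.005 and no overlap. Psma6, Psmb6 and Psmd7 were lower as deposited and higher after scaling: Psmd7 changed by -1.07 ± 0.30 (SE, limma adjusted p = 0.00458) and 0.36 ± 0.12 (SE, limma adjusted p = 0.0411), and in both scales its LIPUS and Control libraries did not overlap. Psmd4 changed by 0.81 ± 0.18 (SE, limma adjusted p = 0.00433). The lowest were Psmd2, at -1.87 ± 0.50 (SE, limma adjusted p = 0.00359) as deposited and -0.44 ± 0.35 (SE, limma adjusted p = 0.383) after scaling, and Psmd11, at -1.79 ± 0.40 (SE, limma adjusted p = 0.00110) and -0.37 ± 0.24 (SE, limma adjusted p = 0.289). The cutting subunits Psmb5, Psmb6 and Psmb7 changed by 0.53 ± 0.23 (SE, limma adjusted p = 0.112), 0.60 ± 0.17 (SE, limma adjusted p = 0.0158) and 0.41 ± 0.31 (SE, limma adjusted p = 0.373) after scaling, and by -0.91 ± 0.37 (SE, limma adjusted p = 0.0344), -0.83 ± 0.35 (SE, limma adjusted p = 0.0377) and -1.03 ± 0.44 (SE, limma adjusted p = 0.0437) as deposited. Without Model replicate 7 the scaled change of Psmb5 was 0.52 ± 0.18 (SE, limma adjusted p = 0.0363). Relative to genes of like length, Psmb5, Psmb6 and Psmb7 changed by -0.16, -0.10 and -0.22 in LIPUS against Control as deposited, with all libraries. Median log2 changes as deposited were -0.87 over the core and -1.18 over the cap, beside -1.48 over all tested genes; 30 of 35 members were above that gene as deposited, 17 with quantile normalization or a pseudocount of 1 and 13 with no filter. LIPUS and Control libraries did not overlap for 11 members below and 0 above as deposited (background 59.4% and 0.416%), and for 12 above and 0 below after scaling (background 11.2% and 15.3%). Without Model replicate 7, which enters through the shared spread, 16 were higher and 0 lower after scaling (background 14.6% and 19.8%) and 0 higher and 29 lower as deposited (background 1.12% and 78.6%). Without LIPUS replicate 10 as well, 19 were higher and 0 lower after scaling (background 15.7% and 21.5%) and 0 higher and 26 lower as deposited (background 1.9% and 74.7%). Without Control replicate 7, 6 were higher after scaling.

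The 6 members that are no subunits of the constitutive particle had lower levels than most subunits or were silent. Psma8 was at 0.0299 FPKM in Control replicate 9 and 0.153 FPKM in Model replicate 6, which is 1 and 5 recovered reads, and was listed at 0 in the other libraries. Psmb11 had 1 read in 1 library, Model replicate 9, at 0.0461 FPKM. At these depths 3 reads over a gene of 2 kb correspond to 0.0412 to 0.0505 FPKM, a limit that covers counting error only. Psmc3ip had 3.77 ± 0.370 FPKM in Control, 2.41 ± 0.635 in Model and 1.87 ± 1.17 in the LIPUS group. The chaperone Psmd9 was at 10.99 ± 0.998, 6.87 ± 2.60 and 4.94 ± 2.06 FPKM, Psmd10 at 17.1 ± 1.16, 18.1 ± 11.1 and 11.8 ± 6.72 FPKM, and Psmd5 at 40.98 ± 3.61, 26.4 ± 11.7 and 17.7 ± 10.9 FPKM. None of the 4 tested was called in Model against Control on either scale, with scaled changes of 0.09 ± 0.27 (SE, limma adjusted p = 0.816), 0.02 ± 0.31 (SE, limma adjusted p = 0.962), 0.68 ± 0.30 (SE, limma adjusted p = 0.0927) and 0.06 ± 0.20 (SE, limma adjusted p = 0.837) in that order. Without Model replicate 7, Psmd5 and Psmd9 were lower as deposited, by -0.94 ± 0.38 (SE, limma adjusted p = 0.0450) and -0.91 ± 0.32 (SE, limma adjusted p = 0.0244). In LIPUS against Control Psmc3ip, Psmd5 and Psmd9 were lower as deposited, and none of the 4 was called after scaling.

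Among other genes of the pathway, 43 of 46 listed were tested. In Model against Control 1 was higher and 15 were lower as deposited, and 10 were higher and 7 lower after scaling, against 2.95% and 43.1% and then 15.3% and 20.2% of all tested genes. In LIPUS against Model these counts were 0 and 2, and 1 and 0 after scaling, and in LIPUS against Control 1 and 31, and 12 and 4, where 0.953% and 74.4%, and 11.6% and 14.3%, of all tested genes were called. Nfe2l1, the factor that drives subunit genes, had FPKM of 80.9, 55.7, 65.8, 77.3 and 67.7 in Control, 15.5, 7.87, 12.9, 16.3 and 16.5 in Model, and 9.29, 11.5, 7.55, 16.4 and 4.04 in the LIPUS libraries. Every Model and LIPUS library was below every Control library. Its log2 change in Model against Control was -2.36 ± 0.33 (SE, limma adjusted p = 4e-05) as deposited and -1.58 ± 0.27 (SE, limma adjusted p = 0.000446) after scaling, and in LIPUS against Control -2.95 ± 0.33 (SE, limma adjusted p = 4.78e-06) and -1.52 ± 0.27 (SE, limma adjusted p = 0.000929). Among the 5 transcription factors Nfya and Nfyb, subunits of NF-Y, were lower as deposited too, but not after scaling, where Nfya changed by -0.45 ± 0.26 (SE, limma adjusted p = 0.191) and Nfyb by -0.35 ± 0.23 (SE, limma adjusted p = 0.248). Ddi2, the protease that activates Nfe2l1, was lower on both scales, -1.58 ± 0.40 (SE, limma adjusted p = 0.00460) and -0.82 ± 0.25 (SE, limma adjusted p = 0.0181), as was Faf2, an adaptor of the segregase Vcp, -1.78 ± 0.42 (SE, limma adjusted p = 0.00298) and -1.001 ± 0.34 (SE, limma adjusted p = 0.0316). Ube3c, a ubiquitin ligase at the cap, changed by -0.80 ± 0.27 (SE, limma adjusted p = 0.0343) after scaling.

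Rps27a, which encodes ubiquitin fused to a ribosomal protein, was the pathway gene raised as deposited, from 565 ± 159 FPKM in Control to 2215 ± 709 in Model and 1015 ± 515 in LIPUS. Its log2 change was 1.95 ± 0.39 (SE, limma adjusted p = 0.000852) in Model against Control and -1.25 ± 0.39 (SE, limma adjusted p = 0.0436) in LIPUS against Model. In the latter, as deposited, 13.3% of all tested genes were lower and their median change was -0.60. After scaling, 0 of the 6 genes in the list of Rps27a were lower in LIPUS against Model. Of the 6 genes tested in the list of assembly chaperones, 4 were higher in Model after scaling, where 15.3% of all tested genes were. They were Akirin2, which is not itself such a chaperone, Pomp, Psmg3 and Psmg4. Psmg2 was lower as deposited, -1.14 ± 0.34 (SE, limma adjusted p = 0.0114). Of the activators, Psme3, the nuclear one, was lower on both scales, -1.82 ± 0.34 (SE, limma adjusted p = 0.000528) and -1.05 ± 0.23 (SE, limma adjusted p = 0.00260). In its list of 5 activator and inhibitor genes no other was lower, and 1 was higher after scaling. In LIPUS against Model 1 of the 5 was higher after scaling, where 2.72% of all tested genes were. The 3 immunoproteasome subunits, which replace the cutting subunits in immune cells and under interferon, had low levels. In Control Psmb8 was at 6.80 ± 2.02 FPKM, Psmb9 at 4.98 ± 1.59 and Psmb10 at 4.802 ± 1.26. As deposited none of the 3 was called in Model against Control, and 1 was higher and none lower in LIPUS against Control. The median log2 change of the 3 as deposited was 0.68 in the first of these comparisons and 0.11 in the other. After scaling, Psmb8 changed by 1.50 ± 0.36 (SE, limma adjusted p = 0.00431) in Model and 2.42 ± 0.36 (SE, limma adjusted p = 0.000234) in LIPUS against Control, Psmb9 by 0.08 ± 0.36 (SE, limma adjusted p = 0.886) and 1.31 ± 0.36 (SE, limma adjusted p = 0.0140), and Psmb10 by 1.44 ± 0.26 (SE, limma adjusted p = 0.000592) and 1.51 ± 0.26 (SE, limma adjusted p = 0.000681).

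The COP9 signalosome, a complex built like the lid, and the TRiC chaperonin, a protein-folding machine, were counted in the same way. In Model against Control as deposited, where 43.1% of all tested genes were lower, 3 of 10 COP9 genes (Cops7b, Cops8 and Gps1) and 1 of 8 TRiC genes (Tcp1) were lower and none was higher, and after scaling 3 (Cops4, Cops6 and Cops9) and 1 (Cct4) were higher. Their median changes as deposited were -0.56 and -0.50, beside -0.66 over the 35 members. In LIPUS against Control 8 of 10 and 6 of 8 were lower as deposited, where 74.4% of all tested genes were, and 4 and 2 were higher after scaling. The share of all tested genes higher after scaling was 11.6% in LIPUS against Control and 15.3% in Model against Control. No test was made of the difference between these complexes and the proteasome. At an unadjusted p under 0.05 limma gave 0 higher and 4 lower COP9 genes and 0 higher and 2 lower TRiC genes in Model against Control as deposited. Reads shared with near-identical pseudogenes of proteasome genes could be lost or counted for another gene. The authors' rule for such reads is not given in the sources used here.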

How the data were processed

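RNA-seq of rat prostate gave 1 FPKM value per gene and library in a table deposited by the authors. The submitters' processing notes list fastp, HISAT2, HTSeq, SAMtools, R 3.2.0 and DESeq2 and the build rn6; their roles, the gene annotation and the use of strand are not given in the sources used here. Per the labels' protocols, total RNA was extracted with TRIzol. The FPKM of all 22436 genes gave whole reads within 0.001 of a read in every library, and totals of 29675962 to 36402094 reads. Gene lengths were recovered from the same values, so whole reads are partly built in. The recovered reads summed exactly to the recovered total in 0 of 15 libraries, with a largest gap of 0.0057%. At these totals a count of 3 reads over a gene of 2 kb is 0.0412 to 0.0505 FPKM, which covers counting error only. No per-sample column was left out, and any pair of libraries in a group differed with a chi-square per degree of freedom of at least 75.05, so none was a copy.

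Genes above 0.5 FPKM in at least 5 of 15 libraries (12490) were tested with limma 3.58.1 (R 4.3.3, trend) on log2(FPKM + 0.1), with all 15 libraries in 1 fit and Benjamini-Hochberg adjustment over all tested genes; calls have an adjusted p under 0.05. Fold changes on this scale understate those of low genes. Scaled values are FPKM divided by median-of-ratios factors from 10313 genes above 0 in every library. Summaries used Python 3.11.15, pandas 2.3.3, numpy 2.4.6 and scipy 1.17.1. Tested on simulated data for Model against Control over 12490 genes, the fit called 10% of genes changed by a log2 fold of 1, 56% of those changed by 2 and 0.0163% of unchanged genes. The simulation changed 100 genes by each size, left 12290 unchanged and drew each gene independently. In the real comparison 43.1% of tested genes were called lower, so these shares need not hold for it. Replicate numbers 6 to 10 recur in each group, but same-numbered libraries did not deviate together in every pair of any comparison, and the fit has no block.

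Members and lists were chosen with earlier results of these data known, so no list is tested. Genes are named by rule: the cutting subunits, the highest and lowest change in each class and comparison, Psmd14, Psmd4 and Psmd2, the members below the filter or outside the particle, members called against the median gene, the immunoproteasome subunits, Nfe2l1 and the 8 pathway genes with the smallest adjusted p. Psmd3, Psmd11 and the other genes named in a count were named after their values were seen. Alternatives were other scalings, filters, pseudocounts, weights and fits, and leaving out libraries. A result on the luminal markers is not reported here.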

Additional observations from a re-analysis of the deposited data

Results flagged for a closer look

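In a group of 5 libraries, a value was marked when its gap to the nearest other library took a share of the group's range above Dixon's 95% critical value. Of 93 groups tested 18 were marked. Chance marks about 1 in 20 of single groups. The 93 groups share their libraries and are not independent, so their number marked cannot be judged by that rate. Of these 18, 14 were Model replicate 7 as the highest library of its group. In FPKM its values were 216.6 for Psmb7, 88.3 for Psma5, 92.2 for Psma3, 100.05 for Psmc5, 150.4 for Psmc2, 74.2 for Psmc4, 74.5 for Psmd1, 91.7 for Psmd2, 57.6 for Psmd14, 37.3 for Psmd10 and 47.1 for Psmd5. Its medians were 135.9 FPKM over the core genes and 74.5 FPKM over the cap genes, and the members took 0.927% of its nuclear reads. The other marked values were Psmb4 at 140.3 FPKM and Psmb9 at 7.71 FPKM in Control replicate 8, Psmb9 at 11.4 FPKM in LIPUS replicate 7, and a median of 43.7 FPKM over the cap genes in Control replicate 7, the lowest of its group.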

How the results depend on the processing

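Members called as deposited numbered 6 in Model against Control, 2 in LIPUS against Model and 25 in LIPUS against Control. In Model against Control the count was 11 with median-of-ratios scaling, 3 with no filter on low values, 14 when only both groups compared were fitted, 25 with array weights (1 higher and 24 lower), 23 without Model replicate 7 and LIPUS replicate 10 together and 17 without both after scaling. In LIPUS against Model it was 0 with median-of-ratios scaling, quantile normalization, values relative to nuclear reads, no filter, a fit of both groups compared alone and the replicate block, and 14 without both libraries after scaling. In LIPUS against Control it was 9, 2 and 3 under the 3 scalings, and 7 with the replicate block after scaling. Of other pathway genes, array weights called 36 in Model against Control and 4 in LIPUS against Model, and median-of-ratios scaling called 1 in LIPUS against Model and 16 in LIPUS against Control. Leaving out each library in turn gave 2 to 17, 0 to 13 and 18 to 35 members in the 3 comparisons as deposited, and 8 to 14 (12 without Model replicate 6 or LIPUS replicate 10), 0 to 14 and 6 to 16 after scaling.

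The core minus cap difference relative to genes of like length was -0.0084 in Model against Control and -0.016 in LIPUS against Control. The log2 change of the core level was 0.45 in Model against Control after median-of-ratios scaling; in LIPUS against Model it was 0.14, 0.082 and 0.28, and in LIPUS against Control 0.60, 0.088 and 0.52, under median-of-ratios, quantile and nuclear-read scaling. That of the cap level was 0.053 in Model against Control with median-of-ratios, 0.17 and 0.26 in LIPUS against Model with quantile and nuclear-read scaling, and 0.17, -0.16 and 0.10 in LIPUS against Control. The mitochondrial share of LIPUS exceeded that of Model by 18.8 to 28.9 percentage points with 1 library left out. The exact permutation p was 0.0556 without Model replicate 8, 9 or 10. The replicate block gave 7, 0 and 25 members as deposited; the correlations of same-numbered libraries were -0.417 to 0.209 in the comparisons with Model and -0.111 to 0.249 in LIPUS against Control, and 0, 1 and 1 of 5 libraries correlated best with their own number. The cause of these differences was not tested. Members above the median tested gene in LIPUS against Model numbered 21 as deposited, 7 with no filter on low values and 31 with quantile normalization. Differences in Psma8 and Psmb11 were not detectable at this depth.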
